A study of Mus musculus with 8 samples.

Results

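Kidneys of vehicle-treated mice 1 day after ischemia-reperfusion injury (IRI) were compared with uninjured control kidneys by single-cell RNA sequencing. Cells were taken from the condition column of the deposited cell table and kept when they had more than 300 detected genes, fewer than 20000 counts and less than 25% of counts from mitochondrial genes. This left 22489 cells at day 1 and 11205 control cells, together 33694 of the 120281 barcodes of the 7 conditions in the table. The mice were male C57BL/6, and their age was not given in the sources used here. In the day 1 group, DMSO was injected intraperitoneally once before the pedicle of the left kidney was clamped and released, with the right kidney left in place. The control group was healthy mice without injury, for which no vehicle injection, anaesthesia or sham operation is described. The effects of injury, surgery and vehicle can therefore not be told apart in this comparison. Kidneys of 3 mice were pooled per condition, and cells in both groups were dissociated, sorted by viability dye exclusion and light scatter to enrich live leukocytes, and fixed.

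Each condition was thus 1 pool, and no test between mice, p-value or standard error is possible. The 8 sublibraries into which the barcoded cells were divided are technical, and every SD given with a log2 ratio here is the SD over these 8, which leaves out variation between mice. Levels are CPM, the counts of a gene summed over the cells of a class and scaled to a class total of 1000000, with exact Poisson 95% intervals in brackets for some genes, and these cover counting error alone. A relative log2 ratio is the log2 ratio of day 1 over control less the median log2 ratio of all genes tested in that class, and a fold is that ratio on a linear scale. A gene was called higher or lower when its relative log2 ratio was at least 1 in size and had the same direction in all 8 sublibraries, which is a rule of size and not a test.

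When blood flow returns to an ischemic kidney, tubular cells of the outer medulla and cortex are injured, and neutrophils and then monocytes leave the blood and enter the tissue. Resident macrophages lie between the tubules and capillaries in the healthy kidney, present antigen on MHC class II and clear debris, while recruited monocytes can become macrophages within the injured organ. Injured proximal tubule cells are known to express *Havcr1* (KIM-1), and endothelial cells respond to injury with adhesion molecules and angiogenic factors.

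The pools differed in quality before filtering. Of 20279 control barcodes 55.3% were kept, against 93.9% of 23952 at day 1, since 43.3% of control barcodes and 4.86% of day 1 barcodes had 25% or more mitochondrial counts. Kept cells had a median of 2928 counts and 1351 genes in the control and 2722 counts and 1297 genes at day 1, with 40077221 and 77403258 counts in all. Across the sublibraries, 13712 combinations of barcoding wells occurred in more than 1 sublibrary, as the method allows. A caller marked 3.85% of control cells and 2.93% of day 1 cells as doublets, and these were kept. What part the unequal loss of control barcodes had in the results was not tested.

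Cells were assigned to 13 classes, each by the class with the most detected genes of its 10 markers and at least 3 of them. This assigned 92.1% of control cells and 89.2% of day 1 cells to a class. Outside the markers, genes known for the named cell type were among the 10 that led several classes, such as *Il36g* and *Trem1* for neutrophils, *Fcer2a* and *Ighd* for B cells, *Icos* and *Zap70* for T cells, *Tie1* and *Esm1* for endothelial cells and *Slc13a1* for the proximal tubule. Other leading genes are not markers of their class, among them *Stab2* in control T cells, *Calca* in day 1 T cells, and *Col14a1* and *Nes* in day 1 macrophages. In the dendritic cell gate 19.1% of control cells and 18.9% of day 1 cells had a count of *Siglech* or *Grm8*. *Siglech* is a marker of plasmacytoid dendritic cells, for which there was no class of their own.

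Neutrophils and monocytes made up most of the day 1 pool. Neutrophils were 69 control cells, 0.616% (exact binomial 95% interval 0.479 to 0.779) of the pool, and 8061 cells, 35.8% (35.2 to 36.5), at day 1. Their share was thus 58.2-fold higher, a log2 ratio of 5.86 ± 0.68, and the sublibraries spanned 0.215% to 0.891% in the control and 34.3% to 37.4% at day 1. Monocytes were 1.29% (1.08 to 1.51) of control cells and 16.5% (16.0 to 17.0) at day 1, 12.8-fold higher, with a log2 ratio of 3.68 ± 0.23. Nonclassical monocytes, which patrol the inside of vessels, were 1.35% (1.14 to 1.58) and 7.10% (6.77 to 7.44), a log2 ratio of 2.40 ± 0.33. No sublibrary overlapped between the conditions for any of these classes.

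Resident and structural classes made up less of the day 1 pool. Macrophages were 36.3% (35.4 to 37.2) of control cells and 14.0% (13.6 to 14.5) at day 1, a log2 ratio of −1.37 ± 0.05. Dendritic cells were 9.03% and 2.99% (−1.60 ± 0.11), T cells 6.69% and 1.5% (−2.15 ± 0.20) and B cells 4.07% and 2.41% (−0.76 ± 0.26). Endothelial cells were 20.6% (19.9 to 21.4) and 5.88% (5.58 to 6.20), a log2 ratio of −1.81 ± 0.11, and proximal tubule cells 8.76% (8.25 to 9.30) and 1.12% (0.991 to 1.27), a log2 ratio of −2.96 ± 0.30. The loop of Henle class, 171 control and 131 day 1 cells, gave −1.39 ± 0.23. All of these had 1 direction in all 8 sublibraries, whereas NK cells (−0.64 ± 0.44) had it in 7 and distal tubule or collecting duct cells (−0.40 ± 0.81) in 6. The stroma class held 23 cells in each condition. When each cell was thinned to 500 counts before gating, the log2 ratio was 4.93 for monocytes, −3.86 for the proximal tubule, −2.61 for the loop of Henle and −1.24 for the distal class, and with the study's limit of 1.5% ribosomal protein counts per cell it was −1.64 for B cells.

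**Figure D1:**
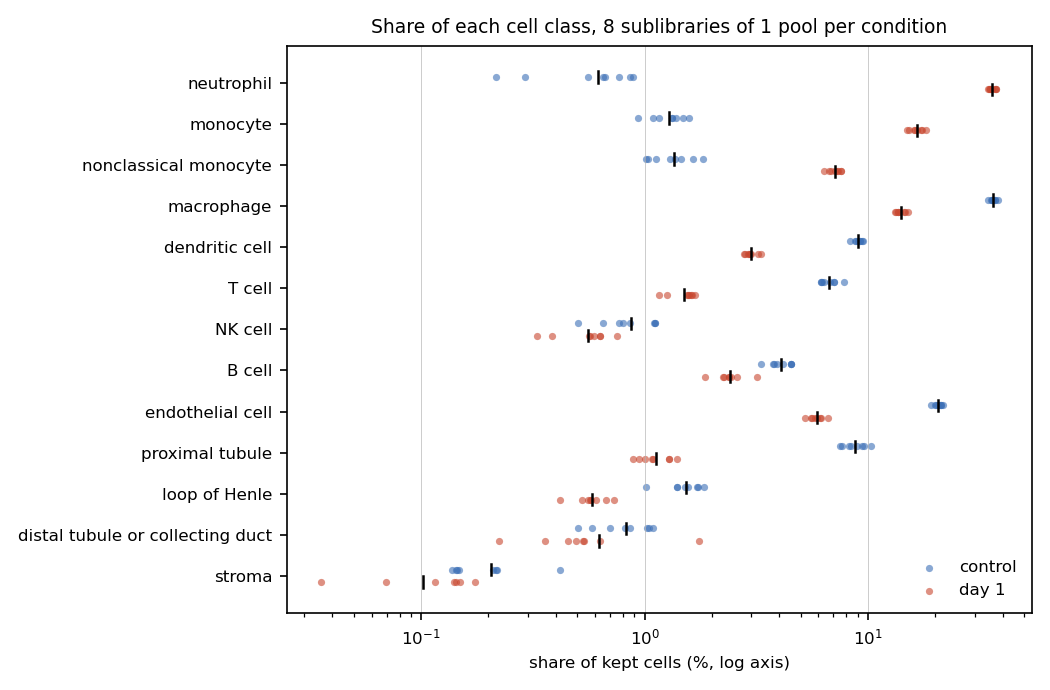
Share of kept cells (percent, log axis) in each of 13 marker-gated classes in the control pool and at day 1; points are the 8 sublibraries, which are technical, and a stroma share of 0 is not drawn. Neutrophils stood at 0.616% and 35.8%, with sublibraries from 0.215% to 0.891% and from 34.3% to 37.4%, and macrophages at 36.3% and 14.0%.

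Shares add to a whole, and the sort for leukocytes acts on them, so a lower share is not a count of lost cells. Leukocyte classes together were 60.2% of control cells and 80.9% at day 1. Among leukocytes alone, neutrophils made up 1.02% of 6746 control cells and 44.3% of 18197 day 1 cells, and macrophages 60.3% and 17.3%. Among the other cells alone, endothelial cells were a larger share of non-leukocytes at day 1 than in the control, with a log2 ratio of 0.13, and loop of Henle cells of 0.55, while that of proximal tubule cells was −1.02. First-round barcoding wells, 6 of the control and 7 of day 1, did not overlap for neutrophils (0.306% to 1.06% against 35.0% to 37.6%), monocytes (1.07% to 1.48% against 13.9% to 17.9%) or macrophages (34.4% to 37.9% against 13.2% to 15.6%). In the later vehicle pools, which share the control, neutrophils were 24.2% at day 7 and 9.33% at day 14, and macrophages 33.4% and 44.5%, but 47.1% of barcodes passed the filters at day 7 and 94.1% at day 14.

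Expression could be compared in 9 classes with at least 100 cells in each condition, over genes whose mean reached 50 CPM and which had 40 or more counts. Neutrophils did not reach this number in the control, and their levels rest on 69 control cells with 100204 counts. The alarmin *S100a9* stood at 3094 CPM in control neutrophils and 5819 CPM at day 1, and its partner *S100a8* at 718.5 and 1819 CPM. The chemokine *Cxcl2*, a ligand of the neutrophil receptor *Cxcr2*, was at 409.2 and 3067 CPM, and *Cxcr2* itself at 828.3 and 1505 CPM. *Acod1*, the enzyme that makes itaconate, stood at 1746 and 3646 CPM, and *Il1b* at 8093 and 11887 CPM. The granulocyte growth factor receptor *Csf3r* was lower at day 1, at 2602 CPM against 3423 CPM. *S100a8*, *S100a9*, *Cxcr2* and *Csf3r* are markers of the neutrophil gate, so cells were selected in part by their detection. Their levels in this class are therefore not independent of the gate, and such markers were left out of the tested genes in the other classes. No call was made in this class.

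Over all kept cells, 449 of 3594 genes were called higher (12.5%) and 358 lower (9.96%). A sum over all cells follows the shares of the classes as well as the levels within them. *Thbs1*, which encodes the matrix glycoprotein thrombospondin 1, stood at 49.98 CPM in the control and 2692 CPM at day 1, a relative log2 ratio of 5.68 ± 0.28, and *Acod1* at 16.77 and 769.9 CPM (5.44 ± 0.39). *Slfn4* (5.31 ± 0.47), a myeloid schlafen gene, and the pseudogene *B230303A05Rik* (5.70 ± 0.49) were also among the highest. The lowest were *Egf*, the growth factor made by distal nephron segments, at 256.8 and 10.41 CPM (−4.70 ± 0.51), *Fut9* (−3.43 ± 0.55), the NADPH oxidase *Nox4* of tubular cells at 101.6 and 12.27 CPM (−3.12 ± 0.55), *Negr1* (−2.94 ± 0.30) and the polyol enzyme *Sord* (−2.85 ± 0.27). With TMM scaling in place of totals, the median of all genes stood at 0.36 and the calls split into 706 higher and 209 lower.

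Macrophages had more called genes than any other of the 9 classes, with 262 of 3418 genes higher (7.67%) and 215 lower (6.29%) between 4067 control cells and 3150 day 1 cells. With TMM scaling the split was 333 higher and 163 lower. The number of calls also depends on the spread over sublibraries, which is smaller in classes with more counts. The median SD was 0.17 in macrophages, 0.61 in monocytes and 0.83 in the loop of Henle. The median size of the relative log2 ratio was 0.38 in macrophages and 0.43 in the loop of Henle. *Thbs1* (ENSMUSG00000040152, chr2:118111876-118127133, plus strand) stood at 32.92 CPM (30.0 to 36.1) in control macrophages and 1217 CPM at day 1, 33.5-fold higher with a relative log2 ratio of 5.07 ± 0.45. It was detected in 341 of the control cells and 1206 of the day 1 cells. The extracellular matrix gene *Ecm1* (2.68 and 99.17 CPM, 5.07 ± 0.92), the metalloproteinase gene *Adam8* (9.75 and 318.7 CPM, 4.89 ± 0.41) and the chemokine gene *Pf4* (10.24 and 210.3 CPM, 4.22 ± 0.43) followed. *Pf4* is also a platelet transcript, and of the other 6 platelet genes *Ppbp* stood at 0.495 and 21.43 CPM in macrophages, while *Gp9* and *Gp1ba* had no count in either condition.

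Transcripts of 2 neutrophil markers were found at low levels in other classes and more so at day 1. Whether they were carried over, came from doublets or were made by the cells was not tested. *S100a8* and *S100a9* together stood in the classes other than neutrophils at 0.470% to 1.05% of their level in control neutrophils and at 1.13% to 3.32% at day 1, with 1.78% in day 1 macrophages. If all neutrophil RNA were present at that percentage, 66.4 of the 1217 CPM of *Thbs1*, 54.5 of the 667.6 CPM of *Cxcl2* and 42.1 of the 116.3 CPM of *Slc7a11* in day 1 macrophages would come from neutrophils. For *Hmox1* the estimate was 0.694 CPM and for *Pf4* 0.189 CPM. These estimates cover neutrophils alone. Monocytes also held *Thbs1* and *Cxcl2* at day 1, and RNA carried over from them was not estimated in any class. With such an estimate subtracted, 268 genes were called higher in macrophages, 261 of them among the 262.

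Antioxidant, heme and iron genes were higher together in macrophages. Of the 22 genes of this list 11 had enough counts, and 10 of these were called higher and none lower, with a median relative log2 ratio of 2.09. A gene can pass the filter through 1 condition alone, so this count and those for the lists that follow are descriptions. *Slc7a11*, the cystine transporter that feeds glutathione synthesis, stood at 9.04 CPM in the control and 116.3 CPM at day 1 (3.54 ± 0.37). *Hmox1*, which breaks down heme, stood at 68.53 and 443.5 CPM (2.55 ± 0.20). Both subunits of the iron store ferritin were higher, *Ftl1* at 496.6 and 2418 CPM (2.14 ± 0.09) and *Fth1* at 673.7 and 3210 CPM (2.11 ± 0.08). The thioredoxin reductase *Txnrd1* (2.12 ± 0.29), the glutathione reductase *Gsr* (2.09 ± 0.23), *Prdx1* (2.06 ± 0.20), *Txn1* (1.90 ± 0.28), the iron exporter *Slc40a1* (1.79 ± 0.69) and *Gclc* (1.37 ± 0.29) were also called. *Nfe2l2*, which encodes the transcription factor NRF2 of this response, stood at 415.8 and 711.1 CPM and was not called (0.63 ± 0.10).

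Genes of wound repair, chemotaxis and glycolysis were higher as well. Of 27 wound and matrix genes 12 were tested, 7 called higher and none lower (median 1.42). Besides *Thbs1* these included the matrix metalloproteinase *Mmp14* (22.82 and 168.5 CPM, 2.74 ± 0.30), the urokinase receptor *Plaur* (2.25 ± 0.42) and its ligand *Plau* (1.54 ± 0.26), the TGF-beta-induced matrix gene *Tgfbi* (276.5 and 1391 CPM, 2.19 ± 0.14) and the syndecan *Sdc4* (1.30 ± 0.22). *Mmp12* and *Mmp13*, other matrix metalloproteinases, were not called, at 0.20 ± 0.33 and −0.80 ± 0.42. Of 23 chemokines 7 were tested and 6 called higher: *Cxcl2* (46.20 and 667.6 CPM, 3.71 ± 0.30), the monocyte attractant *Ccl2* (11.66 and 162.3 CPM, 3.66 ± 0.86), *Ccl6*, *Ccl9*, *Ccl3* and *Ccl4*. The exception was *Cxcl16* at 0.47 ± 0.11. Among 24 cytokines, of which 4 were tested, *Tnf* (50.02 and 134.3 CPM, 1.28 ± 0.24) and *Il1b* (701.2 and 1862 CPM, 1.27 ± 0.16) were called higher, *Il15*, a survival factor of NK and memory T cells, was called lower (159.5 and 47.41 CPM, −1.89 ± 0.20), and *Tgfb1* stood at 198.7 and 216.4 CPM.

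Glycolysis had 17 genes, of which 10 were tested, 5 called higher and none lower, with a median of 1.31. The pyruvate kinase gene *Pkm* stood at 56.52 and 349.9 CPM (2.49 ± 0.21), *Gapdh* at 47.90 and 241.1 CPM (2.19 ± 0.20), the aldolase gene *Aldoa* at 30.52 and 145.4 CPM (2.11 ± 0.10), *Eno1* at 31.01 and 116.4 CPM (1.77 ± 0.16) and the lactate dehydrogenase gene *Ldha* at 30.59 and 107.8 CPM (1.68 ± 0.17). *Aldoa* is the name of more than 1 feature in the matrix, and the one with more counts was used. *Pfkfb4*, which encodes a regulator of glycolytic flux, stood at 108.9 and 72.26 CPM (−0.73 ± 0.17). Of 18 hypoxia-inducible genes 5 were tested, and *Hif1a*, the oxygen-regulated transcription factor, was called (66.13 and 248.0 CPM, 1.77 ± 0.16), while *Ndrg1* stood at −0.76 ± 0.40. Since hypoxia-inducible factor binds the core letters ACGTG, the window from 250 bases before to 50 bases after the transcription start (RefSeq, GRCm38.p6) of each called glycolysis gene was searched for them on both strands. All 5 had a window, and 4 held the letters: *Aldoa*, *Gapdh*, *Ldha* and *Pkm*, against 19.6% of 32851 windows and 21.8% of 27025 genes. The 2 windows with more than 1 match are shown, with matches on either strand in capitals: *Ldha*, chr7:46845554-46845853, plus strand, with 5 matches, of which 4 overlap in pairs in the palindrome CACGTG, the first beginning 145 bases before the start, and *Pkm*, chr9:59656977-59657276, plus strand, with 2 matches, the first beginning 75 bases before the start. A match describes the sequence and is not a binding site.
Ldha: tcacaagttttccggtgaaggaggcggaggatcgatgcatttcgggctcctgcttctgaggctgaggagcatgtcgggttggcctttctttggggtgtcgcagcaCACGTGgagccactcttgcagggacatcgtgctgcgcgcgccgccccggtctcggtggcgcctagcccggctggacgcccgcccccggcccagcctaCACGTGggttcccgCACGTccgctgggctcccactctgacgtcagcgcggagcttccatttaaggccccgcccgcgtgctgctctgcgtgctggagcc
Pkm: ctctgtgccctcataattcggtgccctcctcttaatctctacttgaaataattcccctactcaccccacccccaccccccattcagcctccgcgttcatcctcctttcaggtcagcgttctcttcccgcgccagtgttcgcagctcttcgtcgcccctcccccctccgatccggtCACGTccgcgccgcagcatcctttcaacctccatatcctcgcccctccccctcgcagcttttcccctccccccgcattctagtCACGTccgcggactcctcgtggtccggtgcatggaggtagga

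Of 22 efferocytosis and lipid genes 11 were tested and 4 called higher in macrophages, namely *Spp1*, which encodes the secreted matrix protein osteopontin (129.3 and 733.9 CPM, 2.36 ± 0.27), the lipid droplet gene *Plin2* (1.60 ± 0.25), the lectin gene *Lgals3* (1.58 ± 0.19) and the cholesterol exporter *Abca1* (1.24 ± 0.11). *Apoe* stood at 1134 and 898.9 CPM (−0.48 ± 0.15). Adhesion molecules and chemokine receptors gave 4 of 11 tested (of 18), with the integrin *Itgam* (CD11b) at 154.2 and 629.7 CPM (1.89 ± 0.14), the complement receptor *C5ar1* (1.77 ± 0.14), *Cd44* (1.56 ± 0.11) and *Itga5* (1.34 ± 0.20). Of 25 genes around the kinase SYK 22 were tested, with the C-type lectin receptors *Clec4d* (5.16 and 99.03 CPM, 4.12 ± 0.40) and *Clec4e* (7.98 and 138.3 CPM, 3.97 ± 0.61) called higher and the adaptor *Blnk* lower (470.7 and 232.2 CPM, −1.16 ± 0.15). These counts lie near the shares over all macrophage genes, 7.67% higher and 6.29% lower. *Syk* itself stood at 476.0 and 470.8 CPM (−0.16 ± 0.11). The inflammasome sensor *Nlrp3* stood at 87.04 and 266.3 CPM (1.47) and was called. Of 15 NF-kB genes 11 were tested, and the inhibitors *Tnip3* (1.91 ± 0.46) and *Nfkbia* (1.35 ± 0.18) were called, while *Nfkb1* stood at 0.27 ± 0.11. Among 16 tested immediate early genes (of 25), *Nr4a2*, *Fosl2*, *Nr4a3* and *Zfp36* were called higher, *Jund* lower, and *Fos* stood at 199.1 and 399.4 CPM (0.86 ± 0.17).

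Genes that were lower in day 1 macrophages included the cell cycle gene *Ccnd3* (cyclin D3, chr17:47505051-47599691, plus strand), at 819.0 CPM (804 to 834) in the control and 96.18 CPM (91.1 to 101) at day 1, 9.39-fold lower (−3.23 ± 0.23). It was detected in 3158 of 4067 control cells and 729 of 3150 day 1 cells. The ABC transporter gene *Abca9* stood at 508.9 and 62.01 CPM (−3.18 ± 0.17), the non-coding *2610035D17Rik* at 147.4 and 19.51 CPM (−3.06 ± 0.33), *Adam22* at 183.1 and 25.20 CPM (−3.00 ± 0.40) and the sterol hydroxylase *Cyp27a1* at 175.6 and 26.20 CPM (−2.89 ± 0.26). *Mki67*, a marker of dividing cells, stood at 102.8 and 20.29 CPM (−2.48 ± 0.75), and was 1 of 2 tested among 28 cell cycle genes.

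Antigen presentation genes were lower in macrophages. Of 11 MHC class II genes 7 were tested, 5 called lower and none higher (median −1.14). *H2-Ab1* stood at 1346 and 557.7 CPM (−1.41 ± 0.14), *H2-Eb1* at 1493 and 650.4 CPM (−1.34), *H2-Aa* at 919.6 and 459.2 CPM (−1.14), the peptide loading gene *H2-DMb1* at 154.9 and 58.88 CPM (−1.54) and the invariant chain *Cd74* at 5251 and 2823 CPM (−1.04 ± 0.09). In dendritic cells, by contrast, 9 of the 11 were tested and none was called, with a median of 0.42 there. The markers of the dendritic cell gate include *Ciita*, the MHC class II transactivator gene, so its cells were in part selected by this program. The difference between the classes was not tested. Genes that glucocorticoids induce gave 3 of 7 tested (of 16) lower in macrophages, *Tsc22d3* (90.85 and 32.54 CPM, −1.62 ± 0.36), *Fkbp5* (386.9 and 153.0 CPM, −1.48 ± 0.12) and *Zbtb16* (322.6 and 157.8 CPM, −1.17 ± 0.11), and none higher. The receptor gene *Nr3c1* was not called (−0.50 ± 0.13).

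Of 15 genes of the resident macrophage program 12 were tested and *Hpgd*, which inactivates prostaglandins, was the 1 called, lower at day 1 (299.1 and 85.79 CPM, −1.94 ± 0.31), near the 6.29% of all macrophage genes called lower. *Mrc1* (525.1 and 635.6 CPM, 0.13 ± 0.15), *Maf* (−0.28 ± 0.11) and *Itga9* (−0.31 ± 0.07) were within 1 log2 unit of the median. The study named genes for resident and for acute-injury macrophages on these same samples, so their direction is not independent evidence. Of the 3 resident genes *Tgfbr1* was called lower (2907 and 1326 CPM, −1.27 ± 0.11), while *Cx3cr1* stood at 671.3 and 654.8 CPM (−0.18) and *Arhgap22* at −0.78. The acute-injury list counts *Lilrb4a* and *Lilrb4b* separately for the *Lilrb4* that the study names, and its *C1qa* was a marker of the macrophage class and so was not tested. Of these 8 features *Lilrb4b* (301.6 and 920.0 CPM, 1.47 ± 0.10), the scavenger receptors *Cd36* (362.8 and 1047 CPM, 1.39 ± 0.22) and *Stab1* (1.17 ± 0.14) were called higher, *Lilrb4a* (322.7 and 583.5 CPM, 0.71 ± 0.07) and *Dab2* (0.95 ± 0.12) were not, and the apoptotic cell receptor *Axl* at 616.8 and 476.6 CPM (−0.51 ± 0.15).

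**Figure D2:**
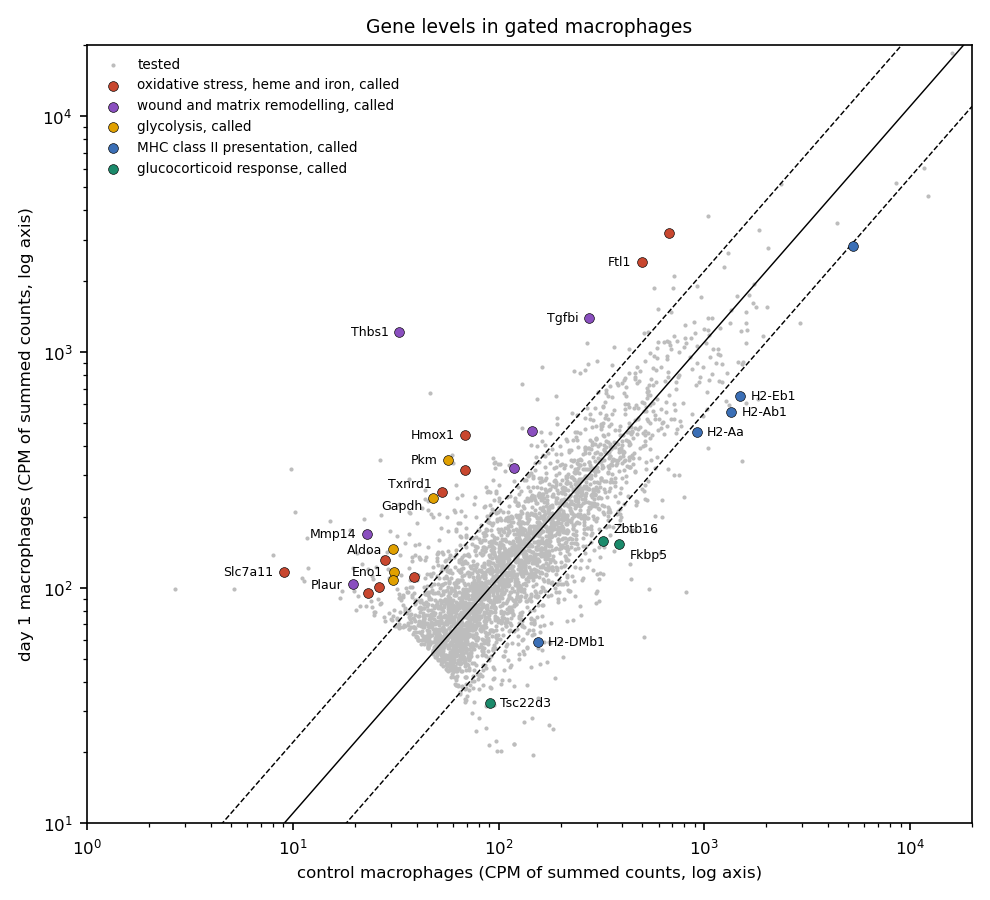
Levels of tested genes in control macrophages (horizontal, CPM, log axis) against day 1 macrophages (vertical, CPM, log axis), 1 pool each; the solid line marks the median ratio of the genes and the dashed lines a relative log2 ratio of 1 above and below it, and coloured points are called members of gene lists. *Thbs1* lies at 32.92 and 1217 CPM, far above the upper line, and *Fkbp5*, *Zbtb16* and the 5 called MHC class II genes lie below the lower line.

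Macrophage levels in the later vehicle pools differed from gene to gene. These comparisons share the control cells, so the values are given side by side. *Thbs1* had relative log2 ratios of 5.07, 4.30 and 3.32 at days 1, 7 and 14. *Hmox1* stood at 2.55, 0.62 and 0.28, *Fth1* at 2.11, 0.33 and 0.22, and *H2-Ab1* at −1.41, −0.26 and −0.04. *Abca9* stood at −3.18, −0.27 and −0.04. *Fkbp5* lay below the control level at each day, at −1.48, −2.37 and −2.32, as did *Zbtb16* at −1.17, −1.37 and −1.51.

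Monocytes, 144 control and 3713 day 1 cells, had 144 of 3140 genes called higher (4.59%) and 97 lower (3.09%), or 220 and 60 with TMM scaling. The acute phase gene *Saa3* had 2 control counts and stood at 154.9 CPM at day 1, a ratio of 42.8 (11.8 to 353), the podoplanin gene *Pdpn* also had 2 (ratio 31.7, 8.77 to 262), and the ectoenzyme gene *Cd38* had 3 (ratio 28.1, 9.60 to 136). *Chst11*, a chondroitin sulfotransferase gene, stood at 10.87 and 427.8 CPM (5.13 ± 1.13, or 5.93 without sublibrary s3). Wound genes gave 5 of 7 tested (of 27) higher, among them *Mmp19* (21.73 and 182.7 CPM, 2.90 ± 0.65), *Thbs1* (903.7 and 5306 CPM, 2.38 ± 0.89) and *Tgfbi* (345.9 and 1624 CPM, 2.06 ± 0.68). *Ccl2* (12.68 and 189.1 CPM) and *Cxcl2* (41.66 and 539.6 CPM) were among 4 chemokines called of 5 tested.

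Genes of the macrophage lists were called in both directions in the monocyte class. Of the study's 8 acute-injury features 6 were tested and 2 called higher. The endocytic adaptor gene *Dab2* stood at 50.71 and 540.6 CPM (3.25 ± 0.81), and *Stab1* at 25.36 and 227.7 CPM (3.00 ± 1.49). The resident program gave 3 higher of 5 tested (of 15) and none lower, among them *Mrc1* (47.09 and 207.1 CPM, 1.97 ± 1.49) and *Maf* (92.37 and 273.5 CPM, 1.40 ± 0.56). *Spp1* (105.0 and 940.5 CPM, 2.99 ± 0.85) and *Abca1* (56.14 and 339.2 CPM, 2.43 ± 0.51) were the 2 called of 11 tested lipid and efferocytosis genes. Of the 3 resident genes named by the study none was called higher and *Cx3cr1* was called lower (326.0 and 138.0 CPM, −1.41 ± 0.49). Of 17 glycolysis genes 14 were tested and 6 called higher, the glucose transporter gene *Slc2a1* (57.96 and 219.8 CPM, 1.75 ± 0.64), *Pkm* (164.8 and 561.4 CPM, 1.60 ± 0.45), *Eno1*, *Gapdh*, *Pgk1* and *Gpi1*, and none was called lower (median 1.09). *Hif1a* stood at 199.2 and 666.7 CPM (1.57).

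Interferon-stimulated genes were lower in monocytes. Of 42 genes 14 were tested, 8 called lower and none higher, with a median of −1.33. *Ifi213*, an interferon-inducible gene of the PYHIN family, stood at 153.9 CPM (123 to 190) in the control and 26.68 CPM at day 1 (−2.70 ± 0.59). *Stat2*, which encodes part of the factor that switches these genes on, stood at 206.5 CPM (170 to 248) and 57.16 CPM (−2.02 ± 0.45). The antiviral genes *Mx1* (125.0 and 25.71 CPM, −2.45 ± 0.72) and *Oasl2* (139.5 and 51.06 CPM, −1.62 ± 0.33) were lower, as were *Ifi211* (170.2 and 75.38 CPM, −1.34 ± 0.34), *Parp14* (333.2 and 152.8 CPM, −1.29 ± 0.49) and *Slfn5* (394.8 and 202.0 CPM, −1.14 ± 0.23). *Gbp5* (−3.36 ± 2.12) and *Irf1* (−1.31 ± 1.11) lay as low but did not have 1 direction in all sublibraries. The list gave 2 lower of 15 tested in macrophages (median −0.72), where 6.29% of all genes were called lower, 2 lower of 24 in endothelial cells, where 1.44% were, and none of 9 in nonclassical monocytes or 10 in T cells. In dendritic cells 1 of 11 tested was called and in the other direction, *Oas2* (33.14 and 76.29 CPM, 1.03 ± 0.67). *Il15* (−1.18) was also lower in monocytes.

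The factor that STAT2 forms with IRF9 binds an element whose core reads GAAA, any 2 bases and GAAA. This core was searched on both strands in the 300-base windows of the 8 called genes, of which *Ifi211*, *Ifi213*, *Slfn5*, *Stat2* and *Oasl2* had a window. The first 4 of these held a match, against 3.44% of all windows and 3.99% of all genes. The 4 windows are shown 5′ to 3′ on the strand of the gene (RefSeq, GRCm38.p6), with the match in capitals, since they show how its place differs between genes called in the same direction: *Ifi211* (chr1:173912997-173913296, minus strand), *Ifi213* (chr1:173599223-173599522, minus strand), *Slfn5* (chr11:82951852-82952151, plus strand) and *Stat2* (chr10:128270248-128270547, plus strand).
Ifi211: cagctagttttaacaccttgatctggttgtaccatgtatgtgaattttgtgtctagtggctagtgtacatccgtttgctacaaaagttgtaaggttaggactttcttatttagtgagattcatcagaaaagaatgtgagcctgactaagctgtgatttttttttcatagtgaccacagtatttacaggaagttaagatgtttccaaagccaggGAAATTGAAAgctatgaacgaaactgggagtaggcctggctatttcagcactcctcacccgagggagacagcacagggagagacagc
Ifi213: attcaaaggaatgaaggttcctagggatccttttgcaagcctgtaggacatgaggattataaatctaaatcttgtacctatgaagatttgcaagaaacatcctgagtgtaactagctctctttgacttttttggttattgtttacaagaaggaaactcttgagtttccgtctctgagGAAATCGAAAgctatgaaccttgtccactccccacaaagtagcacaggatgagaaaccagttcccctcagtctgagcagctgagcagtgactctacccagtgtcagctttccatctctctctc
Slfn5: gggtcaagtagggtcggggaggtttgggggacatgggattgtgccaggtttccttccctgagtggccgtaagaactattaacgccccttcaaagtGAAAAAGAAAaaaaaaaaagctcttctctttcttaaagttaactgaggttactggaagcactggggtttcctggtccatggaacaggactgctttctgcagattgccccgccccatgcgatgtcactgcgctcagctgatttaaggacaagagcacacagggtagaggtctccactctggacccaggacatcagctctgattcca
Stat2: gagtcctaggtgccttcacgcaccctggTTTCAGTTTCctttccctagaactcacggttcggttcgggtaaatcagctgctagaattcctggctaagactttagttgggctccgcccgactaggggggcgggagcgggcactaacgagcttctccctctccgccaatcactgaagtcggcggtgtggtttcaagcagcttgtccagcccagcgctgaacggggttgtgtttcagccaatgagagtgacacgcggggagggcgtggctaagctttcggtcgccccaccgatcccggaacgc
The match began 37 bases before the transcription start of *Ifi211*, 73 before that of *Ifi213*, 155 before that of *Slfn5* and 222 before that of *Stat2*, where it lies on the other strand. In macrophages, the windows of 3 of the 5 called MHC class II genes were in the table and all 3 held the letters ATTGG of the Y box, which 37.4% of windows hold. Of the 10 called antioxidant genes 6 had a window, and those of *Prdx1* and *Txnrd1* held TGACNNNGC, which 12.4% of windows hold.

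Nonclassical monocytes had fewer calls, with 54 of 3158 genes higher (1.71%) and 31 lower (0.982%) between 151 control and 1597 day 1 cells, or 97 and 19 with TMM scaling. *Thbs1* stood at 54.85 and 1161 CPM (4.20 ± 1.61, or 5.14 without sublibrary s5), *Slc7a11* at 12.19 and 143.8 CPM (3.36 ± 1.1), *Cxcl2* at 14.22 and 134.5 CPM (3.04 ± 0.77), and the scavenger receptors for oxidized lipoprotein *Olr1* (28.44 and 231.6 CPM, 2.82 ± 1.48) and *Msr1* (30.47 and 189.9 CPM, 2.44 ± 1.25) followed. *Siglech* (188.9 and 2.06 CPM) and *Grm8* (199.1 and 1.74 CPM) had the lowest ratios. Their counts came from few cells, 9 of 151 control cells and 23 of 1597 day 1 cells, and without these cells a further gene, *Tmem163*, stood at −1.13 in place of −4.93. The other 2 lowest were *Gm15564* (656.2 and 141.9 CPM) and the cytokine receptor gene *Il31ra* (398.2 and 125.3 CPM). *Zbtb16* stood at 516.0 and 205.9 CPM (−1.53 ± 0.44).

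In dendritic cells 97 of 3341 genes were called higher (2.9%) and 69 lower (2.07%), and 121 and 111 without the cells with *Siglech* or *Grm8* counts. The purine enzyme gene *Gda* (guanine deaminase) stood at 30.01 and 265.4 CPM (2.97 ± 0.55), *Plscr1* at 40.44 and 206.9 CPM (2.18 ± 0.39), the inhibitory receptor gene *Lilrb4b* at 39.81 and 197.4 CPM (2.14 ± 0.73) and the transglutaminase gene *Tgm2* at 29.81 and 139.8 CPM (2.06 ± 0.83). For *Thbs1*, at 20.22 and 103.0 CPM (2.18 ± 1.25), 42.2 CPM would come from neutrophils by the estimate above. A further part from monocytes was not estimated. *Negr1* (94.00 and 19.49 CPM), *Gm15564*, *Fhit* (111.5 and 26.17 CPM), *Hpgd* (118.8 and 31.46 CPM) and *Gm16553* were the lowest, between −2.44 and −2.04. Of 12 tested heat shock genes the chaperone genes *Hsph1* (555.5 and 189.9 CPM, −1.72 ± 0.27), *Bag3* and *Dnajb1* were called lower. Of 17 tested genes around SYK *Fgr*, *Clec7a* (88.17 and 254.8 CPM), *Malt1* and *Fcer1g* were called higher and none lower. *Mki67* stood at 192.2 and 58.75 CPM (−1.88), and *Il1b* at 674.3 and 2081 CPM (1.45).

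Lymphocytes had the fewest calls. In T cells 20 of 3394 genes were called higher (0.589%) and 28 lower (0.825%), and in B cells 11 of 3336 (0.33%) and 17 (0.51%). The 11 became 7 without called doublets and 14 to 18 with any 1 sublibrary left out. With the limit of 1.5% ribosomal protein counts, 18 genes were called lower in T cells and 11 in B cells. Of the 20 genes then called higher in T cells, 10 were shared with those above. In T cells *Mki67* stood at 155.9 and 18.12 CPM (−3.31 ± 1.37). The egress receptor gene *S1pr1* (42.55 and 145.9 CPM, 1.57 ± 0.89), *Slamf6* (49.95 and 171.1 CPM, 1.57 ± 0.67) and *Tmtc2* (1.97 ± 1.13) were among the highest. Of 16 lymphocyte state genes 13 were tested in T cells and none was called, with *Bach2* at 0.77 ± 0.23, *Lef1* at 0.51 ± 0.40 and *Ifng* at −0.62 ± 1.98. Other lowest genes were the scavenger receptor gene *Stab2* (235.9 and 33.21 CPM, −3.03 ± 1.44), *Nav2* (−2.26 ± 1.82), *Gm15564* and *Il31ra*. *Cxcl2* in T cells stood at 18.04 and 123.8 CPM (2.58 ± 1.24), of which 54.6 CPM would come from neutrophils. MHC class II genes gave 4 lower of 5 tested in T cells, with *Cd74* at 464.4 and 180.2 CPM, or 8.84% and 2.64% of its level in the class where it was highest.

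In B cells *Thbs1* had the highest ratio. It stood at 25.02 and 330.0 CPM (3.56 ± 1.89), with 124 CPM estimated from neutrophils, *Mxd1* at 35.87 and 138.5 CPM (1.79 ± 1.24), with 133 CPM, and *Spp1* at 147.6 and 642.0 CPM (1.96 ± 0.51). The ferritin gene *Ftl1* (141.0 and 410.8 CPM, 1.39 ± 0.57) and the lipid exporter gene *Abcg1* (70.07 and 195.5 CPM, 1.32 ± 0.81) were the others. Among the lowest, *Siglech* had 168 control counts and 3 at day 1 (ratio 70.5, 23.7 to 345), from 11 control cells. *Gm15564*, *Iqgap2* (−2.16 ± 1.41), *Cdk8* and *Tanc2* (−1.79 ± 0.86) were the other 4. *Bach2*, which maintains B cell identity, stood at 3673 and 3775 CPM (−0.12 ± 0.23).

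**Figure D3:**
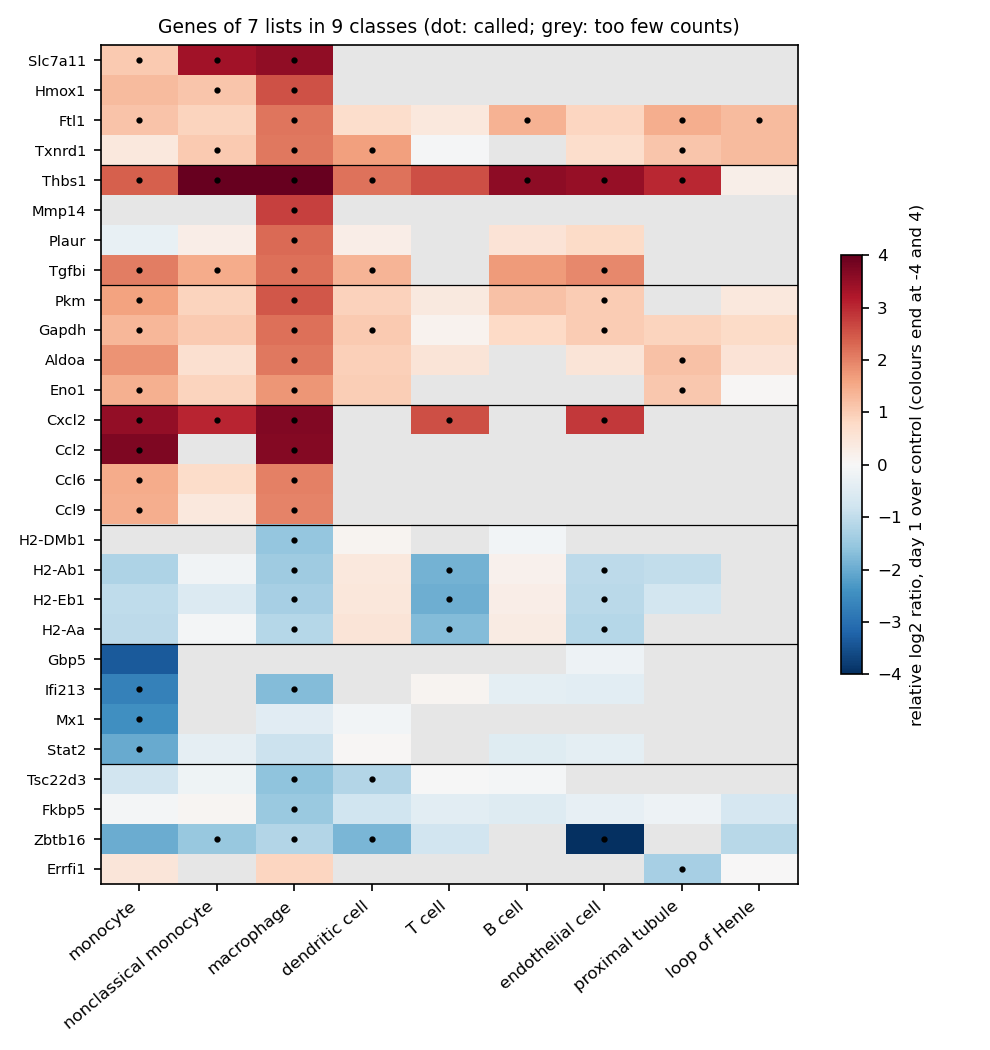
Relative log2 ratio of day 1 over control (colour, ending at −4 and 4) for 28 genes of 7 lists in 9 classes; a dot marks a call and grey a gene with too few counts. Dots of antioxidant, wound, glycolysis and chemokine genes lie on red fields (higher) and those of MHC class II, interferon and glucocorticoid genes on blue (lower), with *Zbtb16* at −4.05 in endothelial cells.

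Endothelial cells, 2309 in the control and 1323 at day 1, had 68 of 3616 genes called higher (1.88%) and 52 lower (1.44%). The lowest ratio was that of *Zbtb16* (chr9:48654297-48836222, minus strand), which encodes a zinc finger transcription factor that glucocorticoids induce. It stood at 415.0 CPM (401 to 429) in the control and 27.69 CPM (23.3 to 32.6) at day 1, 16.5-fold lower (−4.05 ± 0.35), with sublibraries from −4.41 to −3.26. It was detected in 1211 of the control cells and 98 of the day 1 cells. The other 4 tested glucocorticoid genes of the 16 were not called, namely *Fkbp5* (290.0 and 255.8 CPM, −0.32 ± 0.10), *Klf9* (−0.64 ± 0.09), *Nr3c1* (−0.20 ± 0.08) and *Sgk1* (0.30 ± 0.19). After it came *Gm15564* and *Gm12002* (370.4 and 87.90 CPM, −2.22 ± 0.24), both antisense transcripts, the adhesion gene *Sdk1* (86.90 and 24.40 CPM, −1.97 ± 0.39) and *Nostrin*, whose product moves nitric oxide synthase within the cell (169.9 and 49.37 CPM, −1.93 ± 0.42).

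Endothelial activation genes gave 3 of 7 tested (of 19) higher and none lower. The peptide ligand gene *Apln* stood at 18.64 and 101.8 CPM (2.31 ± 0.41), the vessel-destabilizing *Angpt2* at 26.14 and 121.4 CPM (2.07 ± 0.54) and the leukocyte adhesion gene *Vcam1* at 40.30 and 114.8 CPM (1.37 ± 0.50). *Icam1* (68.39 and 111.9 CPM, 0.57 ± 0.45) and *Esm1* (0.30 ± 0.19) were not called. Of 22 identity and vascular tone genes 16 were tested, and the endothelin receptor gene *Ednrb* was called, lower at day 1 (450.4 and 193.2 CPM, −1.36 ± 0.21), while *Tie1* (−0.07 ± 0.11), *Nos3* (0.30 ± 0.27) and *Eng* (866.1 and 1558 CPM, 0.71 ± 0.14) were not. The protease inhibitor gene *Serpine2* (20.09 and 132.6 CPM, 2.58 ± 0.23) and the non-coding *Morrbid* (34.25 and 208.1 CPM, 2.46 ± 0.40) were among the 5 highest with *Thbs1* (26.26 and 325.5 CPM, 3.49 ± 0.55), *Gda* (20.21 and 180.8 CPM, 3.02 ± 0.67) and *Cxcl2* (13.07 and 102.4 CPM, 2.83 ± 0.39). In this class *S100a8* and *S100a9* stood at 2.80% of their neutrophil level at day 1, by which 85.7 CPM of *Cxcl2*, 104 CPM of *Thbs1* and 35.0 CPM of *Gda* would be of neutrophil origin. With that subtracted *Cxcl2* stood at 0.82 ± 2.46 and *Gda* at 3.95 ± 1.81. Without called doublets *Cxcl2* stood at 1.55 and *Thbs1* at 2.83. MHC class II genes gave 4 lower of 5 tested, with *Cd74* at 391.7 and 210.9 CPM, 7.46% and 3.09% of its highest level in another class.

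Proximal tubule cells, 982 in the control and 253 at day 1, had 161 of 3207 genes called higher (5.02%) and 116 lower (3.62%), or 121 and 158 with TMM scaling. *Havcr1* (chr11:46735080-46779578, plus strand), the KIM-1 gene, stood at 2.40 CPM (1.1 to 4.56) in the control and 266.9 CPM (235 to 301) at day 1, 106-fold higher (6.73 ± 1.39), and was detected in 6 and 75 cells. Genes of 2 fibrinogen chains were higher, *Fga* (chr3:83026076-83033627, plus strand) at 2.13 and 142.2 CPM (5.99 ± 1.07) and *Fgg* at 2.93 and 158.7 CPM (5.69 ± 1.18). *Spp1* (chr5:104435118-104441050, plus strand) stood at 210.2 and 3190 CPM (3.86 ± 0.46) and *Lgals3* at 7.73 and 116.4 CPM (3.85 ± 1.45). Of 30 injury genes 10 were tested, 6 called higher and none lower (median 2.68), the others being *Anxa2* (7.20 and 94.80 CPM, 3.65 ± 0.64), *S100a10* and *S100a11*. *Itgb6* (453.7 and 474.0 CPM) and *Runx1* (−0.83 ± 1.22) were not called. *Il34*, a ligand of the macrophage growth factor receptor, stood at 26.67 and 187.5 CPM (2.75 ± 0.61), a gene picked out after its values were seen.

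Transport and metabolism genes of the proximal tubule were split. Of 37 genes 28 were tested, 8 called lower and none higher (median −0.62). The organic anion transporter gene *Slco1a1* stood at 120.8 and 24.73 CPM (−2.36 ± 1.28), the gluconeogenic *G6pc* at 232.6 and 57.71 CPM (−2.08 ± 0.64) and *Ass1*, of arginine synthesis, at 1501 and 504.9 CPM (−1.64 ± 0.21). *Ppara*, a regulator of fatty acid oxidation (−1.39 ± 0.43), *Cyp2e1* (−1.29 ± 0.92), *Slc7a7* (−1.22 ± 0.63) and *Slc22a8* (−1.01 ± 0.67) were also called. *Gatm* (1356 and 790.4 CPM, −0.85 ± 0.42), *Pck1* (−0.21 ± 0.47) and the proximal tubule transcription factor gene *Hnf4a* (564.1 and 385.4 CPM, −0.62 ± 0.36) were not. The methyltransferase gene *Inmt* (162.4 and 17.52 CPM, −3.28 ± 0.94) and the transporter gene *Slc7a13* (137.3 and 15.46 CPM, −3.22 ± 1.83) had the lowest ratios, followed by *D630024D03Rik* and *Col8a1* (124.0 and 24.73 CPM). Antioxidant and iron genes gave 7 of 12 tested (of 22) higher, among them *Fth1* at 1121 and 5296 CPM (2.17 ± 0.29), *Prdx6* (1.73 ± 0.71) and *Txn1* (1.68 ± 0.51).

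The loop of Henle class had 160 of 3228 genes called higher (4.96%) and 183 lower (5.67%) on 171 and 131 cells. *Spp1* stood at 816.6 CPM in the control and 24181 CPM at day 1, 28.1-fold higher (4.82 ± 0.79). *Clu* (clusterin, chr14:65968483-65981547, plus strand) stood at 105.2 and 3668 CPM (5.05 ± 0.96) and the injury marker *Lcn2* (NGAL, chr2:32384633-32388252, minus strand) at 16.97 CPM (9.50 to 28.0) and 640.2 CPM (5.16 ± 1.76, or 5.92 without sublibrary s3). The metalloproteinase gene *Adamts1* (10.18 and 369.6 CPM, 5.11 ± 1.42) and *Rasd1*, with 2 control counts (ratio 45.8, 12.2 to 386), were the others of the highest 5. Injury genes gave 6 of 10 tested (of 30) higher and none lower (median 2.28), with *Anxa2*, *Krt8*, *S100a11* and *Sox4* (45.24 and 213.4 CPM, 2.16 ± 0.62) besides those named. Of the glucocorticoid genes 9 were tested and 3 called higher: the metallothionein genes *Mt1* (71.26 and 556.7 CPM, 2.89 ± 0.62) and *Mt2* (40.72 and 575.3 CPM, 3.75 ± 1.2) and *Rgs2* (64.47 and 462.4 CPM, 2.77 ± 1.24). *Klf9* was called lower (170.8 and 88.14 CPM, −1.03 ± 0.75), and the difference from the macrophage and endothelial values was not tested. Also higher were 5 of 8 tested antioxidant genes with *Fth1* at 306.5 and 1664 CPM (2.37 ± 0.51).

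*Egf* (chr3:129677565-129755316, minus strand) stood at 8403 CPM in control loop of Henle cells and 202.6 CPM at day 1, 43.6-fold lower (−5.45 ± 0.99). *Abca13* stood at 1976 and 128.4 CPM (−4.02 ± 1.08), *Selenbp1* at 91.62 and 9.28 CPM (−3.38 ± 0.97), and the non-coding *D630024D03Rik* had 140 control counts and 1 at day 1 (ratio 102, 18.1 to 4073). A feature without a name, ENSMUSG00000120254, was the fifth, at 95.01 and 9.28 CPM. Of 14 tested transport and metabolism genes 6 were called lower and none higher (median −1.15), with the mitochondrial regulator gene *Ppargc1a* at 877.7 and 174.7 CPM (−2.40 ± 0.57), *Slc7a8* (−2.40 ± 1.78), the fatty acid oxidation genes *Cpt1a* (279.4 and 120.6 CPM, −1.28 ± 0.73) and *Acadm* (−1.27 ± 0.56), and the kinase gene *Wnk4* (−1.25 ± 1.17).

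**Figure D4:**
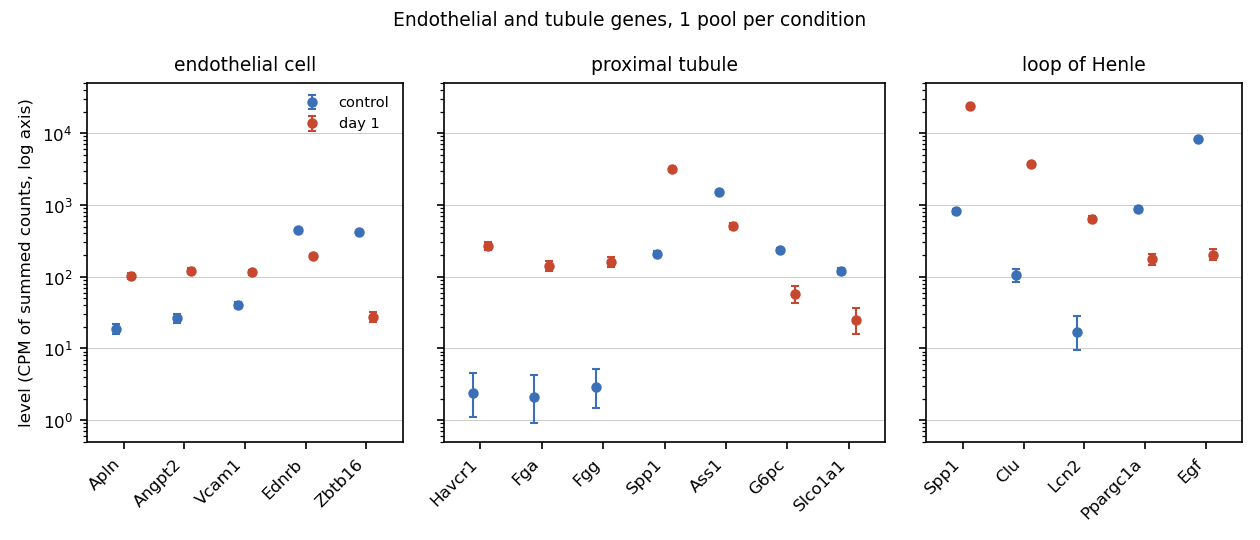
Levels (CPM, log axis, with exact Poisson 95% intervals) in the control pool and at day 1 of named genes in endothelial cells, proximal tubule cells and loop of Henle cells, 1 pool each. *Zbtb16* in endothelial cells stood at 415.0 and 27.69 CPM, *Havcr1* in the proximal tubule at 2.40 and 266.9 CPM, and *Egf* in the loop of Henle at 8403 and 202.6 CPM.

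Most called genes were called in a single class, 973 genes, against 209 in 2 classes and 59 in 3. Classes with fewer counts can miss a call, so a call in a single class does not make a change particular to it. *Spp1* and *Thbs1* were higher in 7 classes each. *Spp1* was at its highest in the loop of Henle class, and in T cells, B cells, endothelial cells and macrophages it stood at 15.1%, 18.1%, 16.1% and 15.8% of that level in the control and at 1.76%, 2.66%, 2.75% and 3.03% at day 1. The proximal tubule gene *Kap* was likewise found in the other classes, at 1.77% to 5.07% of its proximal tubule level in the control and 1.96% to 6.77% at day 1. The part of such RNA in the *Spp1* calls outside the tubule, and of monocyte RNA in the *Thbs1* calls of other classes, was not tested.

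*Cdk8*, *Il31ra* and *Gm15564* were lower in all 9 classes. In macrophages *Cdk8*, a kinase of the Mediator complex, stood at 12235 and 4601 CPM (−1.55 ± 0.16), *Il31ra* at 249.7 and 83.94 CPM (−1.71) and *Gm15564* (chr16:35966752-35983230, minus strand) at 610.7 and 140.2 CPM (−2.26 ± 0.20). The small Cajal body RNA gene *Scarna2* was lower in 8 classes, with 296.2 and 94.69 CPM in macrophages, and *Lars2*, which encodes a mitochondrial tRNA synthetase, in 7. These genes were grouped after their values were seen. *Cdk8* had counts in nearly all cells of the B cell class, 454 of 456 in the control and 513 of 541 at day 1. Whether its counts are messenger RNA of the kinase was not tested. *Gm15564* is annotated as antisense, and whether counting used strand was not given in the sources used here, so its reads cannot be told from those of a partner on the other strand. The median share of mitochondrial counts in kept cells was 4.43% in the control and 2.48% at day 1, and its part in these shared values was not tested.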

How the data were processed

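Single-cell RNA sequencing was performed by the authors with the Evercode WT kit (Parse Biosciences), in which fixed cells are barcoded in wells, the first well giving the condition. Reads were aligned by the authors to mm10 with the Parse pipeline, version 1.1. Counts in the deposited matrix were whole transcripts per gene and cell, not normalized, and cell totals equalled those in the cell table for all 120281 barcodes. Conditions came from the cell table, since each deposited sample held cells of all 7 conditions.

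Counts were summed per class and condition (Python 3.11.15, scanpy 1.11.5; TMM with edgeR 4.0.16). Cells with fewer than 3 markers of any class or a tie were left unassigned. The 130 marker genes and mitochondrial and ribosomal protein genes were left out of the tested genes, and 0.5 counts were added per sublibrary for the SD. The ratio and calling steps were tested on simulated summed counts of the macrophage and endothelial classes alone. The other classes, with larger SDs over sublibraries, were not simulated. The 5 highest and 5 lowest called genes of each class were named, and up to 4 members of each of 29 lists (541 genes), those with the largest ratios. Some genes are not reported here. Further members were picked after their values were seen. The members and lists were chosen with earlier results of these data known. Coordinates are from GENCODE M21 (mm10), which holds 52081 of the 57010 gene IDs. Alternatives were other gates, filters, scaling, doublet removal (Scrublet) and leaving out each sublibrary.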

Additional observations from a re-analysis of the deposited data

Results flagged for a closer look

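Of 26 class shares checked over the 8 sublibraries, 2 had 1 sublibrary far from the others, and chance gives about 1 in 20. The share of distal tubule or collecting duct cells at day 1 was 1.75% in 1 sublibrary and at most 0.630% in the other 7. The stroma share in the control was 0.420% in 1 sublibrary and at most 0.218% in the others.

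Genes of the lists called in opposite directions in 2 classes were 4, and the difference between the classes was not tested for any of them. *Cd36* had a relative log2 ratio of 1.39 in macrophages and −1.05 in dendritic cells. *Jun* had 1.13 in the proximal tubule and −1.11 in T cells. *Maf* had 1.40 in monocytes and −1.02 in endothelial cells. *Slc7a8* had 2.06 in monocytes and −2.40 in the loop of Henle.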

How the results depend on the processing

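No paired analysis was possible because each condition was 1 pool and the sublibraries carry no replicate number of the mice. The gene ratios checked here were those of the 5 highest and 5 lowest called genes of each class and of all kept cells. Genes picked for such large ratios can hardly change sign, so the check does not cover gene ratios in general. Under the alternatives, 770 of these ratios stayed within their spread, 19 moved beyond it and none changed sign. Among the moves, *Adam8* in macrophages went from 4.89 to 6.19 with neutrophil RNA subtracted, *Cd38* in monocytes from 4.64 to 5.81 with a margin of 2 markers and 5.75 with equal weight per cell, and *Pdpn* from 4.82 to 5.77 with the ribosomal limit and 4.21 with the margin. In macrophages the margin of 2 markers took *Thbs1* from 5.07 to 4.51 and *Ccnd3* from −3.23 to −3.56. For *Siglech* in B cells, removing cells with *Siglech* or *Grm8* counts left no *Siglech* count, so that move is not a measured ratio. Counts of calls stayed within 1.5 times in 132 cases and moved in 26. Shares stayed in 64, moved in 22 and changed direction in 5. The direction changed for the distal class with at least 2 markers (0.18) and, with non-leukocytes as the denominator, for endothelial cells (0.13), the loop of Henle (0.55), the distal class (1.54) and stroma (0.94), and the proximal tubule ratio was then −1.02.

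The macrophage share ratio moved to −1.48 with the ribosomal limit, to −1.48 with a margin of 2 markers, to −1.06 with cells thinned to 500 counts and to −1.80 among leukocytes. The T cell ratio was −2.70, −1.87 and −2.58 with the ribosomal limit, thinning and leukocytes as the denominator. The monocyte ratio was 4.93 with thinning and 3.26 among leukocytes, where the nonclassical ratio was 1.97. TMM scaling gave 706 higher and 209 lower calls over all cells and 220 and 60 in monocytes. A filter of at least 10 CPM gave 221 and 231 in monocytes, 642 and 591 in macrophages and 194 and 145 in endothelial cells, with more genes tested. The cause of the other moves was not tested.

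With 1 sublibrary left out in turn, the share ratios lay between 5.74 and 5.96 (neutrophils), 3.64 and 3.74 (monocytes), 2.34 and 2.47 (nonclassical), −1.39 and −1.37 (macrophages), −2.18 and −2.11 (T cells) and −1.83 and −1.79 (endothelial cells). Higher and lower calls lay between 447 and 457 and 354 and 364 (all cells), 145 and 165 and 99 and 112 (monocytes), 250 and 275 and 210 and 219 (macrophages) and 62 and 70 and 47 and 54 (endothelial cells). Genes with few counts in 1 condition moved by over 1.5 times: in monocytes *Cd38* lay between 4.39 and 5.97, *Saa3* 4.93 and 6.09, *Pdpn* 4.6 and 5.58 and *Chst11* 4.89 and 5.93; in nonclassical monocytes *Thbs1* lay between 3.92 and 5.14, *Grm8* −7.74 and −5.13, *Siglech* −7.05 and −5.45 and *Tmem163* −5.18 and −4.13; in B cells *Siglech* lay between −6.93 and −5.03; and in the loop of Henle *Rasd1* lay between 5.02 and 6.39, *Lcn2* 4.88 and 5.92 and *D630024D03Rik* −7.60 and −6.42. The non-leukocyte denominator, the subtraction of neutrophil RNA and the removal of cells with *Siglech* or *Grm8* counts were chosen after seeing the data. Weighting cells equally gave no value for 1 gene in monocytes without a control count. The 69 control neutrophils limit their levels, and the 131 to 171 cells per condition limit the loop of Henle.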
